A study of Mus musculus with 24 samples.

Results

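Germline genes are active in the cells that give rise to sperm and eggs and are silent in nearly all other tissues. A set of 10 of them, out of the 53465 genes in the deposited table, was followed across 24 transplantable mouse bladder tumors. Naa11, Gk2, Tdrd1 and Stag3 were chosen by their counts in these same tumors, which were specific to certain lines, and 4930467D21Rik, a long intergenic RNA that starts beside Naa11, was treated in the same way. Sycp3, Dazl, Mael, Ddx4 and Asz1 were taken as known germ cell genes. Levels of the first 5 are therefore given as a description without a test. These genes are left out of the counts of called genes below, except where the last section says that they are included. Of the other 5 only Ddx4 passed the filter on low counts and could be tested.

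In the male germ line, the piRNA pathway silences transposons with small RNAs bound to PIWI proteins. TDRD1 is a scaffold protein of this pathway, DDX4 (mouse vasa homolog) is an RNA helicase of germ cell granules, and MAEL and ASZ1 act in the same granules. STAG3 is the meiotic subunit of cohesin, SYCP3 builds the axis of meiotic chromosomes, and DAZL is an RNA-binding protein that controls translation in germ cells. Naa11 (an N-terminal acetyltransferase) and Gk2 (a glycerol kinase) are autosomal copies of the X-linked genes Naa10 and Gk and are used in the testis. In somatic cells many germline promoters are rich in CpG and are kept silent by DNA methylation and by a polycomb complex, PRC1.6, that contains MGA and MAX, which bind CACGTG, and E2F6, which binds GCGGGA.

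The tumors were allografts of BURP (BBN-induced Urothelium Roswell Park) lines, 3 from each of 8 lines. The donors were C57BL/6NTac mice of both sexes that drank water with the bladder carcinogen BBN at 0.1%, starting when they were 8 weeks old and lasting 36 weeks at most. Each line was grown under the skin of C57BL/6NTac hosts of the same sex from the tumor of 1 donor mouse. Of the lines, 6 had been classed as basal/squamous (Ba/Sq), with the males as donors of BURP-12BaSq, BURP-17BaSq and BURP-18BaSq and the females as donors of BURP-24BaSq, BURP-25BaSq and BURP-21BaSq. The male line BURP-16SR had been classed as stroma-rich (SR), with sarcomatoid histology, and the male line BURP-19NE as neuroendocrine-like (NE). The study's classifier placed 2 of the 3 BURP-16SR tumors as stroma-rich and 1 as NE-like. By the study's staining, synaptophysin, a neuroendocrine marker, was high in both lines. Each of these last 2 classes is a single line, so class and donor cannot be told apart. The tests treat each tumor as a unit, although tumors of a line share a donor and are not independent. The spread behind the p-values therefore mixes that between allografts and that between donors of the pooled Ba/Sq lines. Where 1 line stands on a side of a comparison, its spread between donors is not measured. No normal bladder was analysed here, so every statement that a gene was on or off compares tumors with tumors. In bulk tissue, fewer cells that express a gene and less RNA per cell cannot be told apart.

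Total counts per tumor were 9295747 to 25370356. Levels are CPM, that is counts scaled to library size after TMM normalization. The floor of a library is the level of 3 counts and ran from 0.106 to 1.34 CPM, and it covers counting error only. The highest floor was that of C102-M30 of BURP-25BaSq, where 1 gene, CT010467.1, took 61.9% of the counts against at most 1.85% in the other 23 tumors. A second tumor of that line, C102-M1, is of doubtful label: over 17042 genes its log2 levels had Pearson's r of 0.964 to 0.978 with the BURP-21BaSq tumors and 0.893 and 0.883 with C102-M3 and C102-M30 of its own line. Markers of the basal/squamous and neuroendocrine classes separated the lines: 6 basal and squamous genes summed to means of 9542 to 20000 CPM in the Ba/Sq lines, 0.525 CPM in BURP-16SR and 0.905 CPM in BURP-19NE, and 5 neuroendocrine genes summed to 313 CPM in BURP-19NE and 11.5 to 77.9 CPM elsewhere. Markers of the stroma-rich class did not, since 5 stromal genes summed to 1902 to 16380 CPM in the BURP-16SR tumors, to as much as 8004 CPM in a BURP-17BaSq tumor and 4594 CPM in a BURP-18BaSq tumor, and to 1817 to 2395 CPM in BURP-19NE. Markers of the cells around germ cells in the testis (Amh, Dhh, Star, Cyp17a1 and Insl3) summed to means of 7.49 to 16.99 CPM over the 8 lines, and to 7.49 CPM in BURP-16SR, 11.7 in BURP-19NE, 7.90 in BURP-24BaSq and 12.8 in BURP-25BaSq. Most of each sum was Star, with line means of 4.85 to 13.7 CPM, while those of Amh and Cyp17a1 were at most 0.540 and 0.0682 CPM. On a wider list of 14 such genes, 7 were tested in BURP-16SR against the Ba/Sq lines. Only Cyp11a1 was called there (higher, by the rule given below), at 0.874 ± 0.051 CPM against Ba/Sq line means of 0.0543 to 0.509 CPM. Of 6 tested in BURP-19NE only Insl3 was called, lower. Over all genes tested 19.2% and 24.3% were called in these comparisons. Gata4 was highest in BURP-21BaSq and Sox9 in BURP-17BaSq, at 2.35 and 210 CPM. Of the 6 germ cell markers, Dazl, Piwil1 and Zp3 stayed under 3 counts in every tumor.

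Promoters of 10 of the 10 genes were found in RefSeq, taken as 300 bases that run from 250 before the start to 50 after it. Of these, 5 are shown because they belong to the genes that were read in at least 1 line, and that of Mael is shown as a promoter of similar make-up whose gene had no read. Letters in capitals are CACGTG, or GCGGGA on either strand (written TCCCGC where it lies on the other strand). All are from GRCm38.p6. The windows are chr5:97392281-97392580 (minus strand) for Naa11, chr5:97456974-97457273 (minus) for Gk2, chr19:56825959-56826258 (plus) for the first of 3 Tdrd1 starts, chr5:138280259-138280558 (plus) for Stag3, chr13:112652261-112652560 (minus) for Ddx4 and chr1:166238695-166238994 (minus) for Mael.
Naa11: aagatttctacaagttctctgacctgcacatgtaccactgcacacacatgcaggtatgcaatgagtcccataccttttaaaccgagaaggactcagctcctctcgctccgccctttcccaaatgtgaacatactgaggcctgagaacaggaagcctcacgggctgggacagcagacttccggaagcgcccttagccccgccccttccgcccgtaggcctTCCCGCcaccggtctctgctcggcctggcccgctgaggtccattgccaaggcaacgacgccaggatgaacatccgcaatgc
Gk2: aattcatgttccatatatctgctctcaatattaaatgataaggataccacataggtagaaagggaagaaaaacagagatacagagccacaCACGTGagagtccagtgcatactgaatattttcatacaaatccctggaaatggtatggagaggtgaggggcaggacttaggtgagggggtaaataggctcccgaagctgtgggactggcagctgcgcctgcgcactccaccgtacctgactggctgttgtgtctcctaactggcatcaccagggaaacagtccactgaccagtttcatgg
Tdrd1: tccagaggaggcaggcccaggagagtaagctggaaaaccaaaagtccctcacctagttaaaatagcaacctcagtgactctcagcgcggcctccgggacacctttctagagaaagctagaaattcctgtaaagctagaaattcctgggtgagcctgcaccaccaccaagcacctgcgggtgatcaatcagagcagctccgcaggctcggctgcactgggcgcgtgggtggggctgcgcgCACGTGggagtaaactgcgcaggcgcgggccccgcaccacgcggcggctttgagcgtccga
Stag3: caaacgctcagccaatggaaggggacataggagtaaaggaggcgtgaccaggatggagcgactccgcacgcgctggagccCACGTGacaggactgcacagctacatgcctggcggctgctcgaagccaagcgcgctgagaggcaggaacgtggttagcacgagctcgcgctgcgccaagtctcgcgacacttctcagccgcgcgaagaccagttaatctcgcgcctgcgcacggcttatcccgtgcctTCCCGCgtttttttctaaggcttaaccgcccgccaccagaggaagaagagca
Ddx4: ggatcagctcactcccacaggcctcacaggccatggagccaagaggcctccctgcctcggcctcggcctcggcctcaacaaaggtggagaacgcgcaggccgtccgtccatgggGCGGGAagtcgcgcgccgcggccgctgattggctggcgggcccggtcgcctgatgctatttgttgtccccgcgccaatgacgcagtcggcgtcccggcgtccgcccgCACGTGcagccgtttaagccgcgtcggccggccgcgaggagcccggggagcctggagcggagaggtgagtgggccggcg
Mael: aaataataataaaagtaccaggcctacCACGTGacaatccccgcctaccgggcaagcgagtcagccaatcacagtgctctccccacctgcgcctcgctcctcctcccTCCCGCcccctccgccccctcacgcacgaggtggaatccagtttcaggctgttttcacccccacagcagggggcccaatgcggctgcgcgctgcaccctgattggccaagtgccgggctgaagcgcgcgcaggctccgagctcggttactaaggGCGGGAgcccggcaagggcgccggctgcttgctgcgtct

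Among all 32851 promoter windows of that length, 7.15% held CACGTG, 6562 windows held GCGGGA and 1.99% held both on any strand. Over the first windows of the 10 genes, CACGTG was found in 6, GCGGGA in 6 and both in 4, namely Stag3, Sycp3, Mael and Ddx4. These 4 include Mael, which was silent, and Stag3, which was among the highest. The GCGGGA of the Naa11 window and that of the 4930467D21Rik window are the same 6 bases, since the windows overlap. The windows of 9 of the 10 genes had more CpG than the median promoter, which had 7, and the exception was Gk2 with 5. Naa11 had 16 CpG, Tdrd1 had 20 at its first start, Stag3 had 30 and Ddx4 had 38, more than 95.0% of all promoters. Dazl, with 28 CpG, and Asz1, with 17, held neither motif.

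Naa11, Gk2 and 4930467D21Rik formed a block on chromosome 5 that was on in both lines that are not Ba/Sq and off in all 18 Ba/Sq tumors. Naa11 spans 97382198 to 97392379 on the minus strand, and 4930467D21Rik starts 37 bases away and runs in the opposite direction over 249.8 kb, from 97392417 to 97642179. Gk2, from 97455142 to 97457021, lies whole inside an intron of 4930467D21Rik on the opposite strand, 64.6 kb from the Naa11 start. Whether counting used the strand is not stated, so reads of Gk2 and unspliced reads of 4930467D21Rik from that intron could not be told apart.

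Naa11 had 533, 556 and 730 counts in the BURP-16SR tumors C73-M10, C74-MNT and P5, which were 45.2, 43.0 and 51.1 CPM. In the BURP-19NE tumors C80-M1, C80-M3 and C80-M30 it had 568, 521 and 587 counts, or 23.9, 27.5 and 26.6 CPM. The 18 Ba/Sq tumors together held 3 Naa11 counts, 1 in BURP-12BaSq and 2 in BURP-18BaSq. The pooled level of Naa11 in BURP-16SR was 5294 times that of the Ba/Sq tumors (95% exact counting interval 1809 to 25700), and in BURP-19NE it was 2939 times (1004 to 14260). Such intervals, here and below, cover only the counting error of pooled counts. They leave out the spread between tumors and donors, and the choice of genes by their counts. Every BURP-16SR tumor was above every BURP-19NE tumor, and every BURP-19NE tumor was above every Ba/Sq tumor.

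Gk2 had 257, 314 and 405 counts in BURP-16SR (21.8, 24.3 and 28.3 CPM) and 355, 339 and 323 counts in BURP-19NE (14.9, 17.9 and 14.7 CPM). A single count, in BURP-18BaSq, was all that the 18 Ba/Sq tumors held. As for Naa11, the BURP-16SR tumors lay above the BURP-19NE tumors without overlap. 4930467D21Rik was at 4.41, 7.90 and 8.04 CPM in BURP-16SR, from 52 to 115 counts, and at 4.29, 6.38 and 6.13 CPM in BURP-19NE, from as many as 135 counts. It had 1 count in BURP-12BaSq and none in the other Ba/Sq lines. For this RNA the 2 lines overlapped. The means were 46.4 ± 4.16 and 26.0 ± 1.86 CPM for Naa11, 24.8 ± 3.30 and 15.8 ± 1.78 CPM for Gk2 and 6.78 ± 2.06 and 5.60 ± 1.14 CPM for 4930467D21Rik (SD, n = 3) in BURP-16SR and BURP-19NE.

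**Figure D1:**
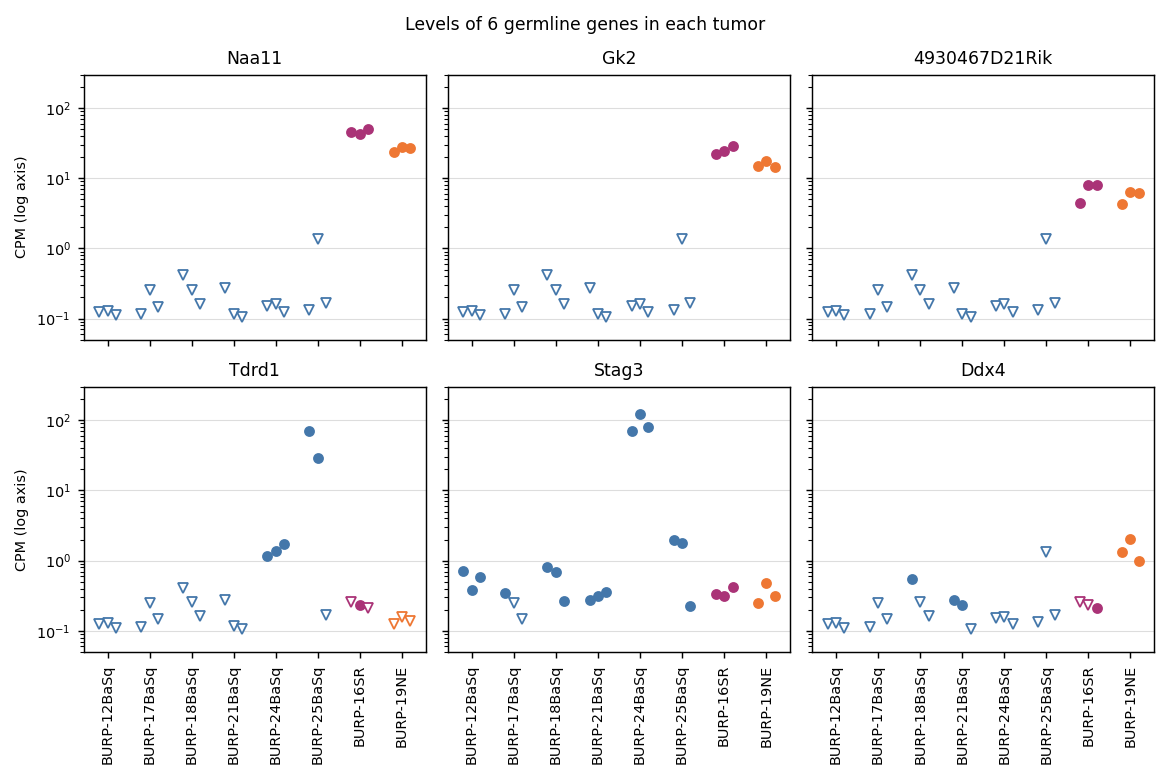
CPM on a log axis (vertical) of the 6 genes that reached 10 counts in a tumor, by line (horizontal), with 1 symbol per tumor and 3 per line. Filled circles are measured levels, and open triangles mark tumors under 3 counts and are drawn at the floor of the library, the highest of which is 1.34 CPM. The upper 3 genes have circles only in BURP-16SR and BURP-19NE, while Tdrd1 is highest in BURP-25BaSq, Stag3 in BURP-24BaSq and Ddx4 in BURP-19NE.

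The neighbours of the block did not share its levels. Of the 4 other genes annotated within 250 kb of Naa11 or Gk2, Gm33609, Gm2861 and Gm33969, all long intergenic RNAs, held at most 1 count in any tumor. The 3 counts of Gm33969 were all in BURP-16SR, 1 per tumor, which is under the floor. Gm5560, a processed pseudogene, was read in every line at means of 0.849 to 2.80 CPM and was lowest in BURP-19NE. The plot of the gene spans and their levels shows the 3 genes that were on side by side, next to RNA genes with at most 1 count in any tumor.

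**Figure D2:**
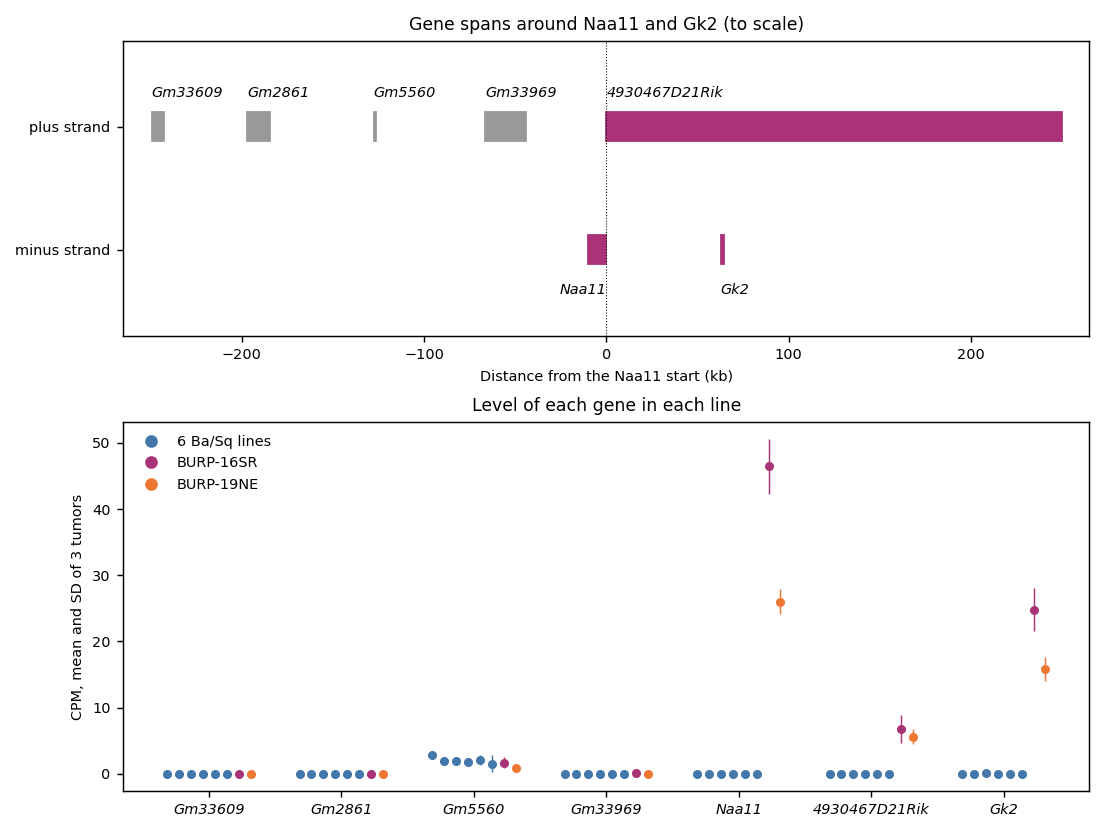
The upper panel draws the spans of the 7 genes around Naa11 to scale, with distance from the Naa11 start in kb (horizontal) and the strand (vertical). The lower panel gives the mean and SD of the CPM over the 3 tumors of each line. Naa11, 4930467D21Rik and Gk2 are above 0 in BURP-16SR and BURP-19NE, while Gm5560 is at 0.849 to 2.80 CPM in every line and the other 3 are near 0.

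Per kb of exon the 2 protein-coding genes stood at nearly the same level. In BURP-16SR, Naa11 was at 13.6 ± 1.21 and Gk2 at 13.2 ± 1.76 CPM per kb (SD, n = 3). In BURP-19NE they were at 7.595 ± 0.543 and 8.42 ± 0.945 CPM per kb. The ratio of Gk2 to Naa11 was 0.878, 1.03 and 1.01 in the BURP-16SR tumors and 1.14, 1.19 and 1.002 in the BURP-19NE tumors, so it overlapped between the lines although the levels did not. 4930467D21Rik was lower on this scale, at 2.33 ± 0.706 and 1.92 ± 0.391 CPM per kb.

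The X-linked parents were read in every line. Naa10 stood at 7.90 ± 1.69 CPM per kb in BURP-16SR and 5.72 ± 0.5262 in BURP-19NE, against means of 6.20 to 12.1 in the Ba/Sq lines. Of the summed level of the pair, Naa11 made up 63.4% ± 2.91 in BURP-16SR and 57.1% ± 0.747 in BURP-19NE. Gk stood at 3.25 ± 1.12 CPM per kb in BURP-16SR and 1.01 ± 0.0538 in BURP-19NE, and at means of 3.17 to 10.7 in the Ba/Sq lines. A single Ba/Sq tumor, P5 of BURP-21BaSq, was at 0.933 CPM per kb, below every BURP-19NE tumor. Gk2 made up 80.6% ± 3.54 of the summed level of Gk2 and Gk in BURP-16SR and 89.2% ± 1.28 in BURP-19NE. Over its own transcript Gk2 shared 1.47% of its 50-base words with another gene, which was Gk, and Naa11 shared none.

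**Figure D3:**
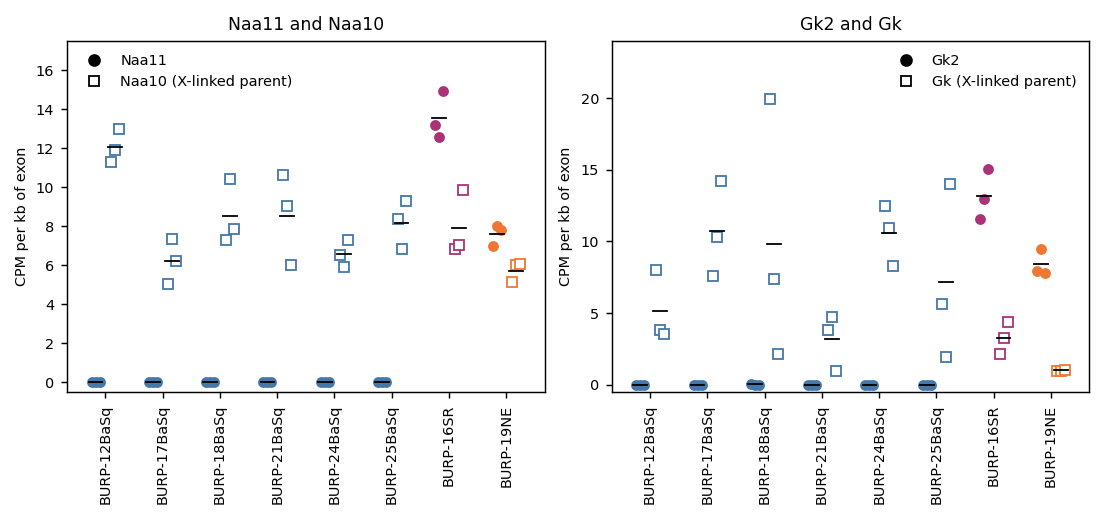
CPM per kb of exon (vertical) by line (horizontal), with filled circles for the autosomal copy, open squares for its X-linked parent, 1 symbol per tumor and a line at the mean of 3. The copies are near 0 in all Ba/Sq lines and above their parents in BURP-16SR and BURP-19NE, where Naa11 makes up 63.4% and 57.1% of its pair and Gk2 80.6% and 89.2%.

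Other genes of this kind did not accompany the block. Of 10 testis-expressed copies of X-linked genes, Cetn1, Pdha2, Pgk2 (a phosphoglycerate kinase of sperm), Rbmxl2, Rpl10l and Ubl4b had no count in any tumor, and the remaining 2 besides Naa11 and Gk2, Utp14b and Cstf2t, were read in all lines. Of the 10 parents, Gk fell in BURP-19NE against the Ba/Sq lines, by 2.92 ± 0.73 on the log2 scale (SE; adjusted p = 0.00423 by edgeR's quasi-likelihood test with Benjamini-Hochberg adjustment), and none of the 10 passed the test in BURP-16SR. Over all genes tested, 15% fell in BURP-19NE and 19.2% were called in either direction in BURP-16SR, so these counts were not above those shares.

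Over the 24 tumors, the 3 genes most like each gene of the block in log2 CPM were the other 2 of the block (Pearson's r from 0.992 to 0.996) and Trpa1, an ion channel of sensory neurons on chromosome 1 (r from 0.984 to 0.987). Trpa1 was at 13.6, 8.82 and 32.2 CPM in BURP-16SR and 28.9, 31.2 and 33.4 CPM in BURP-19NE, with 3 counts in all 18 Ba/Sq tumors. Its tumors overlapped between these lines, unlike those of Naa11 and Gk2. These values describe 24 points that share their donors by 3, and 2 lines carry them.

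Ddx4 was the only member of the known germ cell genes that reached 10 counts, and it did so in BURP-19NE alone. It had 32, 39 and 22 counts there, or 1.35, 2.06 and 0.999 CPM, against 25 counts over all 18 Ba/Sq tumors and 4 over the BURP-16SR tumors. All 3 BURP-19NE tumors were above the highest Ba/Sq tumor, C148-M3 of BURP-18BaSq, which had 0.549 CPM from 4 counts. The pooled level was 19.6 times that of the Ba/Sq tumors (95% exact counting interval 12.5 to 31.8). The log2 fold change was 4.11 ± 0.67 (SE; adjusted p = 7.45e-05 by edgeR's quasi-likelihood test with Benjamini-Hochberg adjustment), where 24.3% of the 20995 genes tested were called in either direction, with 9.33% called higher and 3150 genes called lower. Genes are called where the adjusted p is below 0.05 and the log2 fold change exceeds 1 in size. No Ba/Sq tumor had more than 6 counts, so Ddx4 passed the filter through BURP-19NE alone. With no filter the adjusted p was 0.000106 by edgeR, and over 26 alternative fits by edgeR or DESeq2 it lay between 4.08e-06 and 0.00214. BURP-16SR was at 0.0982 ± 0.106 CPM (SD, n = 3), within the range of the Ba/Sq line means, and Ddx4 did not pass the filter on low counts in that comparison. The genes most like Ddx4 over the 24 tumors were the processed pseudogenes Gm48312 and Tpi-rs9 and the antisense RNA 4930505M18Rik (r = 0.914 for each), for which reads may be shared with other copies.

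Besides Ddx4, 3 genes of the piRNA pathway rose in BURP-19NE. The pathway list held 25 genes, of which 15 besides Tdrd1 were tested, 4 rose (Ddx4, Mybl1, Tdrd12 and Tdrkh) and 1 fell (Tex19.1), where 9.33% of all genes rose and 15% fell. Tdrkh, a tudor protein on mitochondria that takes part in trimming piRNAs, had 24.03, 23.7 and 33.8 CPM in BURP-19NE and 0.350 ± 0.532 CPM in the Ba/Sq tumors (SD, n = 18). Its log2 fold change was 6.44 ± 0.60 (SE; adjusted p = 5.08e-08 by edgeR's quasi-likelihood test with Benjamini-Hochberg adjustment). Tdrd12, a helicase and tudor protein, named after its values were seen, had 6.86, 6.96 and 5.17 CPM against 0.116 ± 0.0861, with at most 5 counts in a Ba/Sq tumor. Neither gene overlapped with the Ba/Sq tumors, but both were called in this same comparison and the share of all genes without overlap was not counted. Piwil1 and Mael, a PIWI protein and its partner in the same granules, stayed under 3 counts in every tumor, as did Asz1, Fkbp6, Gtsf1, Mov10l1 and Stk31.

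Outside the piRNA pathway, the testis helicase Ddx25 had 5.30, 4.32 and 3.68 CPM in BURP-19NE against 0.0943 ± 0.158 CPM over the Ba/Sq group (log2 fold change 5.31 ± 0.70, SE; adjusted p = 6.06e-06 by edgeR's quasi-likelihood test with Benjamini-Hochberg adjustment). Tex15, which is needed for meiotic recombination and for silencing transposons, was at 274, 340 and 333 CPM in BURP-19NE and was read in all lines, with means of 4.43 CPM in BURP-12BaSq to 104 CPM in BURP-18BaSq. Zbtb16, a transcription factor of spermatogonial stem cells that other tissues also use, was at 31.3 ± 21.6 CPM in BURP-19NE, 10.5 ± 4.18 CPM in BURP-16SR and 1.07 ± 2.14 CPM in the Ba/Sq tumors. Tfap2c, a factor of primordial germ cells and also of epithelia, went the other way and had no count in either line against 12.3 ± 8.26 CPM in the Ba/Sq tumors.

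Of the 151 genes of the germline lists, 56 that had not been chosen by their counts were tested in BURP-19NE, of which 10 rose (17.9%) and 9 fell (16.1%). Over all genes tested there 9.33% rose and 15% fell, so the share that fell was near that of all genes. The 10 that rose, listed after their values were seen as are the 9 below, were Brdt, Ddx25, Ddx4, Hsf2bp, Mei4, Mybl1, Tdrd12, Tdrkh, Tex15 and Zbtb16. The 9 that fell were Gtsf1l, Meiob, Msh5, Pnma5, Sycp2, Terb1, Tex19.1, Tfap2c and Ybx2. Ddx4, Hsf2bp and Tdrd12 reached 10 counts in no Ba/Sq tumor and so passed the filter through BURP-19NE, and with no filter Hsf2bp was not called (adjusted p = 0.0711 by edgeR with Benjamini-Hochberg adjustment). The median log2 change of the 56 was -0.69 against -0.14 over all genes. The 19 calls became 11 without C80-M1 and 11 without C80-M3.

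In BURP-16SR 55 genes of the same lists were tested, of which 6 rose (10.9%) and 4 fell (7.27%). Brdt, Hsf2bp, Mybl1, Piwil2, Tdrkh and Zbtb16 rose and Mei4, Psmc3ip, Tfap2c and Ybx2 fell, all named after their values were seen. Of all genes tested there 19.2% were called, 10.5% higher and 8.62% lower, so both shares were near those of all genes. With no filter Brdt and Piwil2 were not called (adjusted p = 0.0868 and 0.108 by edgeR with Benjamini-Hochberg adjustment). Hsf2bp, a meiotic recombination factor, was at 2.31 ± 1.16 CPM against 0.164 ± 0.179 CPM in the Ba/Sq tumors and did not overlap with them (log2 fold change 3.79 ± 0.62, SE; adjusted p = 0.000116 by edgeR's quasi-likelihood test with Benjamini-Hochberg adjustment). Hsf2bp had at most 9 counts in a Ba/Sq tumor, so it passed the filter through BURP-16SR, and with no filter its adjusted p was 0.000181 by edgeR. Tdrd9, a helicase of the piRNA pathway, had its highest mean in this line, at 5.10 ± 4.10 CPM, but also reached 2.995 ± 2.77 CPM in BURP-18BaSq and was not called. The 10 calls became 5 without C73-M10 and 17 with DESeq2. Stromal markers summed to 8514 ± 7321 CPM in BURP-16SR, 2131 ± 292 CPM in BURP-19NE and means of 268 to 3610 CPM in the Ba/Sq lines, and their part in these counts was not tested.

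Stag3 marked BURP-24BaSq. The tumors C81-M1, C81-M30 and P2 of this line had 1375, 2318 and 1964 counts, or 70.1, 123 and 81.2 CPM, and the mean was 91.4 ± 27.8 CPM (SD, n = 3). The next line was BURP-25BaSq at 1.32 ± 0.956 CPM, where C102-M3 had 1.96, C102-M30 had 1.79 and C102-M1 had 0.225 CPM. The 18 tumors of the 6 lines besides these held 128 counts, and their highest level was 0.824 CPM. BURP-24BaSq was at 239 times the pooled level of those 18 tumors (95% exact counting interval 201 to 287). From BURP-25BaSq down, each line overlapped with the next in order. Stag3 lies on chromosome 5 as well, from 138280240 to 138312393 on the plus strand, far from the Naa11 block, which was silent in BURP-24BaSq.

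Of the genes most like Stag3 over the 24 tumors, Gpat2 (r = 0.917) is itself a germline gene, a mitochondrial acyltransferase needed for piRNA production. The others were Gm8947 (r = 0.921), a predicted protein-coding gene at 7.83 ± 5.99 CPM in BURP-24BaSq, and Col26a1 (r = 0.910), a collagen at 4.96 ± 1.97 CPM there. Of 50 germline list genes not chosen by their counts and tested in BURP-24BaSq against the other 5 Ba/Sq lines, 4 rose and none fell (13 had an unadjusted p under 0.05 by edgeR, and DESeq2 called 5), where 1.65% of all 20523 genes were called, 0.945% higher and 0.707% lower. The 4 were Dmc1, Gpat2, Gtsf1l and Xlr4c, of which Dmc1 and Xlr4c are named after their values were seen.

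Dmc1, the recombinase of meiosis, had 0.866, 2.86 and 1.45 CPM in BURP-24BaSq and 0.0289 ± 0.0339 CPM over the other 15 Ba/Sq tumors (log2 fold change 5.39 ± 0.56, SE; adjusted p = 2.61e-05 by edgeR's quasi-likelihood test with Benjamini-Hochberg adjustment). Gpat2 had 2.85, 7.84 and 10.7 CPM against 0.191 ± 0.243 CPM (log2 fold change 5.43 ± 0.55, SE; adjusted p = 1.77e-05 by the same edgeR test). Dmc1 had at most 2 counts and Xlr4c at most 8 in each of the other 15 tumors, so both passed the filter through BURP-24BaSq, and with no filter the adjusted p was 4.13e-05 and 0.00321 by edgeR. Gtsf1l had 5.20, 4.93 and 5.58 CPM against 0.364 ± 0.407 CPM, and it had no count in BURP-16SR or BURP-19NE. Xlr4c had 1.43 ± 0.135 CPM against 0.169 ± 0.115 CPM, and reads of this X-linked family may be divided among its near-identical copies. For all 4 genes the BURP-24BaSq tumors lay above the other 15 Ba/Sq tumors without overlap. The 4 were picked by their call in this same comparison, and the share of all genes without overlap was not counted. All 4 kept their call in each of 23 alternative fits by edgeR or DESeq2.

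Meiotic partners of Stag3 varied. Smc1b, another cohesin subunit specific to meiosis, had 0.815, 2.39 and 0.414 CPM in BURP-24BaSq and at most 6 counts in any other tumor. Tex11, an X-linked meiosis gene, had 407 counts (16.8 CPM) in P2 of BURP-24BaSq and 0 and 1 in C81-M1 and C81-M30. Both are named after their values were seen, and neither passed the filter on low counts among the Ba/Sq lines. Sycp3, the axis protein that STAG3 cohesin works with, had at most 2 counts in BURP-24BaSq. Of the 37 genes of the meiotic list, 11 stayed under 3 counts in every tumor, among them Sycp1, Hormad1, Syce3 and Stra8.

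Tdrd1 was read mainly in BURP-25BaSq, but its tumors disagreed. C102-M3 had 1576 counts (70.2 CPM), C102-M30 had 64 counts (28.6 CPM with a floor of 1.34 CPM) and C102-M1, the tumor of doubtful label, had none. The mean was 32.9 ± 35.3 CPM (SD, n = 3) as labelled, 49.4 CPM without C102-M1 and 14.3 CPM without C102-M3. In BURP-24BaSq all 3 tumors had Tdrd1, with 23, 26 and 42 counts or 1.17, 1.38 and 1.74 CPM. In the 6 lines that remain, 18 tumors held 12 counts together and no tumor held more than 3. BURP-24BaSq was at 41.1 times the pooled level of those lines (95% exact counting interval 22.4 to 82.4) and did not overlap with them. BURP-25BaSq and BURP-24BaSq overlapped only through C102-M1.

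The genes most like Tdrd1 were Ppp2r2c, a regulatory subunit of a protein phosphatase (r = 0.919), the long intergenic RNA Gm19541 (r = 0.884) and the potassium channel gene Kcnj3 (r = 0.883). Ppp2r2c, named for its likeness to Tdrd1 over these tumors, had 140.5 CPM in C102-M3, 69.4 CPM in C102-M30 and 1 count in C102-M1. None of the 50 germline list genes not chosen by their counts was called by edgeR in BURP-25BaSq against the other 5 Ba/Sq lines, where 7 had an unadjusted p under 0.05 and DESeq2 called 1 (Xlr3a), and 1 was called by edgeR without C102-M1. In that comparison 0.273% of all genes were called, 0.263% higher and 0.00975% lower. Rnf17, a tudor protein of germ cell granules named after its values were seen, had 86 and 38 counts in C102-M3 and C102-M30 (3.83 and 17.01 CPM) and 1 in C102-M1.

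Mael had no count in any of the 24 tumors, and Asz1 had 1 count in 1 tumor. Dazl had 1 to 2 counts in 3 tumors, 2 of them of BURP-19NE. Sycp3 had at most 5 counts, in C80-M1 of BURP-19NE, and 24 counts over all tumors. Of its 50-base words 43.0% were shared with Chpt1, whose exons overlap with 660 of its bases on the opposite strand, and 41.7% of its deposited values were not whole numbers, so that its few counts could not be told from reads of Chpt1. At these depths the levels of the 4 genes were below 0.106 to 1.34 CPM, the floors of the libraries, in every tumor but C80-M1 for Sycp3. None of them passed the filter in any comparison, so none was tested.

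The 2 genes that were on in single Ba/Sq lines, Stag3 and Tdrd1, were on in female lines, and the chromosome 5 block and Ddx4 were on in male lines. The sexes of the Ba/Sq lines are made of 3 lines each, so this is a matter of 1 line, or of 2 for Tdrd1. In the 9 female against the 9 male Ba/Sq tumors, no germline list gene of 27 tested passed edgeR's quasi-likelihood test, where 2.31% of all 17922 genes were called, 1.22% higher in females and 1.09% lower. At an unadjusted p under 0.05 there were 6 of the 27, and DESeq2 called 2, Brdt and Xlr3a. With no filter on low counts 6 genes not chosen by their counts were called, Dmc1, Gpat2, Gtsf1l, Smc1b, Rnf17 and Xlr3b. The share of all genes called in that fit was not counted. Among the Ba/Sq lines, Dmc1, Gpat2, Gtsf1l and Smc1b were highest in BURP-24BaSq, Rnf17 in BURP-25BaSq and Xlr3b in BURP-21BaSq. These calls therefore cannot be told apart from expression in single lines. With counts summed per line, which leaves 3 lines against 3, none of 54 was called by edgeR.

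In the 4 Ba/Sq lines besides BURP-24BaSq and BURP-25BaSq, no gene of the 10 exceeded 0.824 CPM, but other germline list genes were not all silent. BURP-18BaSq had 5 genes called higher (Mageb1, Pld6, Terb1, Tex15 and Ybx2) and 3 lower (Msh5, Tdrd7 and Tfap2c) of 50 tested, where 10.1% of all genes were called, 5.97% higher and 4.09% lower. Mageb1 had at most 1 count in each of the other 15 tumors and passed the filter through BURP-18BaSq, and the 8 calls became 5 without C148-M3 and 5 without C149-M3. BURP-17BaSq had 1, Tex14, a component of the bridges between germ cells, at 11.04 ± 5.59 CPM against 0.331 ± 0.437 CPM in the other Ba/Sq tumors, where 1.07% were called, 0.760% higher and 0.312% lower. BURP-12BaSq had 1 higher (Exd1) and 2 lower (Mei4 and Tex15) where 4.59% were called, 2.10% higher and 2.48% lower, and the 3 calls became 0 without C41-M3 and 0 without C47-M3. BURP-21BaSq had no call by edgeR, 8 genes at an unadjusted p under 0.05 and 3 calls by DESeq2, where 0.0195% of all genes were called, 0.00975% in each direction, and 2 calls by edgeR without C102-M1. Xlr3b had its highest mean in BURP-21BaSq, at 19.7 ± 5.74 CPM (SD) from 217 to 654 counts, but was not called. It also reached 19.3 CPM in 1 BURP-25BaSq tumor. The count of BURP-17BaSq became 3 without C165-M30. Summed over the 6 lines this makes 16 calls, 11 higher and 5 lower. With no filter Tex15 was not called in BURP-18BaSq (adjusted p = 0.0513 by edgeR with Benjamini-Hochberg adjustment).

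**Figure D4:**
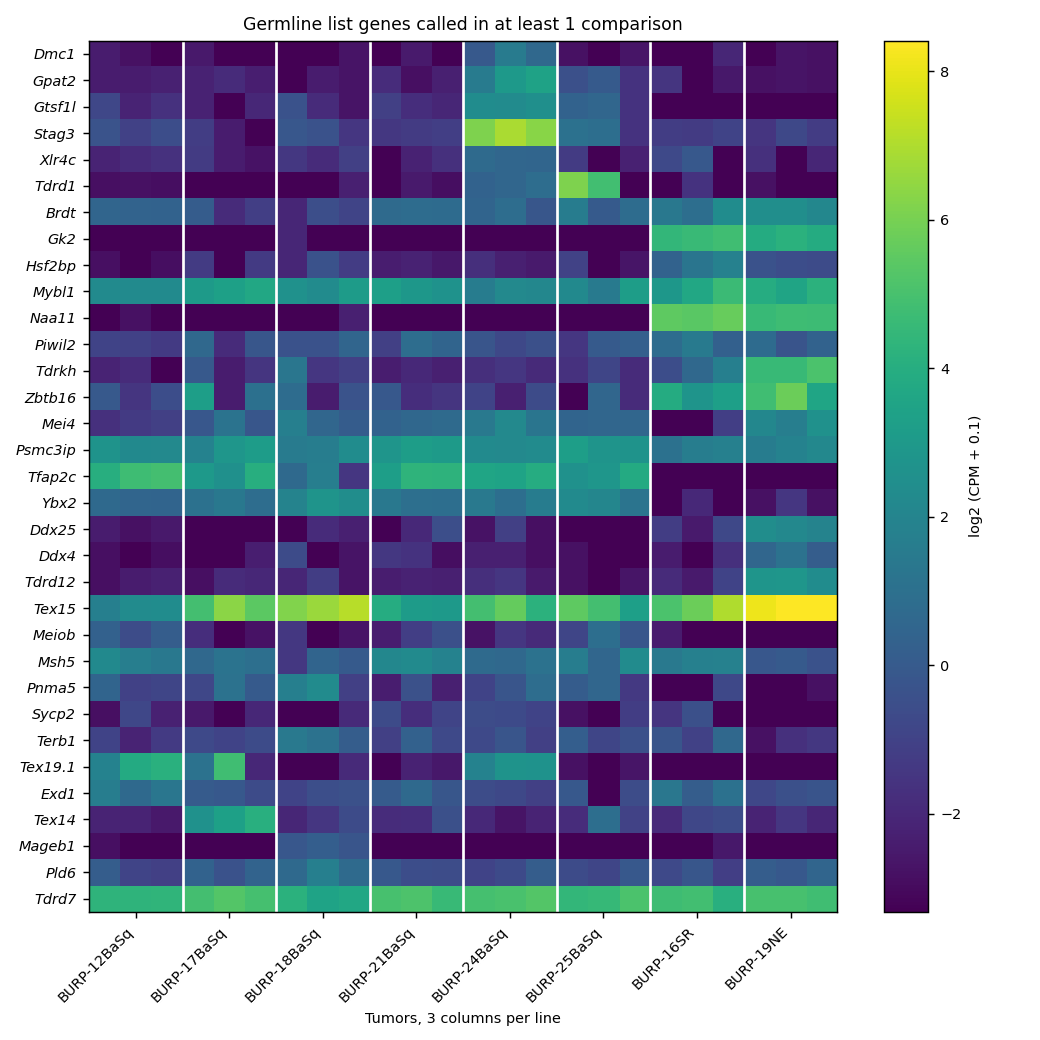
Level of 33 germline list genes (rows), which are Naa11, Gk2, Stag3 and Tdrd1, chosen by their counts, and those called in at least 1 comparison, in the 24 tumors (3 columns per line), as log2 of CPM plus 0.1. Naa11 and Gk2 are bright in all 6 tumors of BURP-16SR and BURP-19NE, Stag3 in the 3 tumors of BURP-24BaSq at 70.1 to 123 CPM, and Tdrd1 in 2 of the 3 BURP-25BaSq tumors at 28.6 and 70.2 CPM.

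Genes that keep germline promoters silent were measured in the same tumors. The list held 25 genes with counts, among them the DNA methyltransferases, the TET enzymes that remove methylation, and PRC1.6 subunits, and all 25 were read and tested. In BURP-19NE, 4 were called (16%, against 24.3% of all genes): Fam208a (a subunit of the HUSH complex) rose by 1.32 ± 0.19 and Rnf2 (the catalytic subunit of PRC1) by 1.10 ± 0.18 on the log2 scale, while Uhrf1 (which maintains methylation) fell by 1.48 ± 0.37 and the methyltransferase gene Dnmt3b fell by 1.48 ± 0.55 (SE). Their adjusted p ran from 2.43e-05 for Fam208a to 0.044 for Dnmt3b by edgeR's quasi-likelihood test with Benjamini-Hochberg adjustment, and the call of Dnmt3b was lost in 5 of 26 alternative fits. The median log2 change of the 25 was -0.24 against -0.14 over all genes. In BURP-16SR only Tet3 was called (4%, against 19.2% of all genes), at 147.7 ± 39.1 CPM against 338 ± 108 CPM (SD). Its log2 change was -1.11 ± 0.28 there and -0.93 ± 0.25 in BURP-19NE (SE; adjusted p = 0.00633 and 0.00734 by edgeR's quasi-likelihood test with Benjamini-Hochberg adjustment), the latter short of the fold required for a call. In BURP-18BaSq, where none of the 10 genes reached 10 counts, Dnmt3b and Hells were called lower, and these calls were lost in 13 and 8 of 23 alternative fits. Of all genes 10.1% were called there, with 4.09% called lower.

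None of the 25 silencing genes was called by edgeR or by DESeq2 in BURP-24BaSq or BURP-25BaSq against the other Ba/Sq lines, where 7 and 2 of them had an unadjusted p under 0.05 by edgeR. Of all genes, edgeR called 1.65% and 0.273% in these comparisons, so no call among 25 genes is near those shares. RNA levels say nothing of methylation or binding at the promoters, which were not measured here.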

How the data were processed

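Libraries of 24 allograft tumors were made from RNA depleted of ribosomal RNA. The authors aligned paired-end reads with STAR 2.6.0a to GRCm38 with GENCODE M16 and deposited RSEM 1.3.1 expected counts per gene, not normalized. Of these estimated counts 12.5% were not whole, since RSEM divides reads that fit several genes, and all were rounded here. The strand setting of the counting is not given in the sources used here. Symbols were found for 53274 of 53465 identifiers (99.6%) in a GRCm38 annotation.

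Tumors were assigned to lines by their labels, and subtype and sex came from the study. R 4.3.3 with edgeR 4.0.16 (TMM, filterByExpr, glmQLFit and glmQLFTest) was fitted on the whole table, with p-values adjusted over all genes tested by the Benjamini-Hochberg method. The fits were tested on simulated data. Levels are CPM on effective library sizes, and CPM per kb divides them by merged exon length. Ratios of pooled levels carry exact binomial intervals, which cover counting error only. Likeness is Pearson's r of log2 CPM with a prior count of 2 over 21383 genes.

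Named were all 10 genes, the genes within 250 kb of Naa11 or Gk2, the parents, the 3 widest-ranging genes of each list with the exceptions below, the silencing genes called, and the 3 genes most like each member. Of the widest-ranging genes, Dpep3, Ldhc, Izumo1, Rbmx, Pgk1, Dnmt3l and Tet1 were not described in the Results. Others are named as chosen after their values were seen. The members and lists were chosen with earlier results of these data known, and the 5 genes chosen by their counts are left out of the counts of called genes in the Results. Alternatives were DESeq2 1.42.0 and its size factors, no filter, at least 10 counts in 3 tumors, all 24 tumors in 1 fit, counts summed per line, and each tumor left out.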

Additional observations from a re-analysis of the deposited data

Results flagged for a closer look

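Single tumors that stand apart were looked for among the 9 male and the 9 female Ba/Sq tumors, for each of the 10 genes with a count of at least 3, by Dixon's test of the gap to the nearest tumor over the range of the group. Of 5 groups 2 had such a tumor. Tdrd1 was chosen for counts specific to a line, so its value is a description and is not set against chance. It stood at 70.16 CPM in C102-M3 of BURP-25BaSq, and the next female tumor, C102-M30 of the same line, was at 28.65 CPM, a gap of 0.592 of the range. The 2 groups of genes not chosen by their counts were both of Ddx4, and 1 had such a tumor. Groups entered only through a tumor with at least 3 counts, and tumors of a line share a donor. This result too is not set against chance. Ddx4 stood at 0.5494 CPM in C148-M3 of BURP-18BaSq, from 4 counts, against 0.0986 CPM in the next male Ba/Sq tumor.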

How the results depend on the processing

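No paired analysis was possible because the labels give no replicate numbers, and a cage, mouse or passage in a title does not pair tumors of different lines. The counts here include the genes chosen by their counts. Leaving those aside, a choice made after seeing the data, gave 19 calls for BURP-19NE, 10 for BURP-16SR, 0 for the sexes and 16 for the 6 Ba/Sq lines. Against the Ba/Sq lines, 21 germline list genes were called in BURP-19NE, with 20 to 23 over the other tools and filters and 13 to 21 with 1 tumor left out (13 without C80-M1 or without C80-M3). For BURP-16SR the 12 calls became 19 with DESeq2 and 24 with all 24 tumors in 1 fit, and 7 to 13 with 1 tumor left out. For the sexes 0 calls became 2 with DESeq2, 8 with no filter and 7 with at least 10 counts in 3 tumors, and 0 or 1 with 1 tumor left out. The 18 calls summed over the 6 Ba/Sq lines became 29 with DESeq2 and 61 with all 24 tumors in 1 fit, and 15 to 21 with 1 tumor left out, the most without C102-M1. The cause of these moves was not tested, and the share of all genes called under each other setting was not counted. Over 53 changes of single genes and 1323 refits, the direction stayed in all, and 1189 refits stayed past the threshold while 134 did not. The calls lost most often in BURP-19NE were Hsf2bp (14 of 26 refits) and Tex19.1 (12), and in BURP-16SR Piwil2 (19 of 26). Mean levels of Tdrd1 in BURP-25BaSq ran from 14.3 to 49.4 CPM and of Stag3 in BURP-24BaSq from 75.6 to 102.03 CPM with 1 tumor left out. Depth limits the silent genes: a level under the floor of a library, 0.106 to 1.34 CPM, could not be told from 0.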
